A study of Mus musculus with 8 samples.

Results

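The 7 mouse genes Th, Ddc, Gch1, Slc6a3, Slc18a2, Maoa and Maob encode the proteins that make, store, take back and break down dopamine. They were chosen by name: every non-control spot of the array that carries one of these gene names was taken, which gave 10 probes of 60 bases for 7 of the 34836 gene names on the array. Ddc, Gch1 and Slc18a2 had 2 probes each, and each probe had 1 spot. A probe was tested where it was well above background (a flag set by the scanner software) on every array of at least 1 nucleus, and 9 of the 10 probes passed. All 7 genes could be tested through their brightest probe, but Gch1 passed through Arc and DMH alone and Slc6a3 through Arc alone.

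The study asked which genes are enriched in neurons of 3 nuclei of the hypothalamus: the arcuate nucleus (Arc, 2 samples), the ventromedial nucleus (VMH, 3 samples) and the dorsomedial nucleus (DMH, 3 samples). All groups came from 2-month-old female mice with the same alleles, the driver Nkx2-1-CreERT2 and a Rosa-ZsGreen reporter, and all mice received tamoxifen. In such mice the tamoxifen-dependent recombinase made under Nkx2-1, a homeobox gene of the ventral forebrain, switches on the green protein ZsGreen, so neurons in which the driver was not active were not marked. Marked neurons were collected with a laser microdissection microscope and pooled, and the RNA of each pool was hybridised in 1 colour to its own array of 1 slide. The labels tie no sample to an animal, so samples may share animals, and the p-values reflect no more than the scatter among these pools, part of which may be technical. As each sample is a pool of cells, fewer cells of a type and less RNA per cell cannot be told apart.

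Dopamine is made from tyrosine by tyrosine hydroxylase, which needs the cofactor tetrahydrobiopterin, and then by aromatic amino acid decarboxylase. A vesicular transporter loads it into vesicles, a plasma membrane transporter takes it back after release, and monoamine oxidases break it down. In the tuberal hypothalamus it is best known from the tuberoinfundibular neurons of the arcuate nucleus, whose dopamine reaches the pituitary and holds back prolactin release.

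The nuclei differed in the markers listed for each. Of the marker lists, 6 of 6 Arc genes were higher in Arc than in the mean of the other nuclei, as were 5 of 5 VMH genes in VMH and 5 of 5 DMH genes in DMH (adjusted p under 0.05 by limma with Benjamini-Hochberg adjustment). Over all genes, 0.613%, 1.34% and 0.842% were called in either direction in these comparisons. The lists were chosen with earlier results of these data known, so the counts are a description and no independent check of the dissection. An array had 72.4% to 78.7% of its probes well above background, the 75th percentile of the signal ran from 1806 to 3042, with DMH replicate 1 the brightest, and the number of arrays limits the precision. All levels below are log2 signals relative to the 75th percentile of the same array, and 1 unit is a factor of 2. Levels of different probes are not comparable with each other.

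Of the synthesis genes, Th and Gch1 were lowest in VMH and did not differ beyond their spread between Arc and DMH. On its brighter probe, Ddc had similar levels in Arc and VMH and its lowest mean in DMH, while its other probe had its lowest mean in VMH. For both Th and Gch1 the difference between DMH and VMH and that between VMH and Arc passed the test; for Ddc no difference passed it.

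Th encodes tyrosine hydroxylase, the rate-limiting enzyme of dopamine synthesis, and its probe lies at chr7:150078703-150078762 (mm9, minus strand). The Th signal was 4.34 and 3.95 in Arc replicates 1 and 2, 1.86, 2.54 and 2.08 in VMH replicates 1 to 3, and 3.42, 3.70 and 3.99 in DMH replicates 1 to 3. All VMH arrays lay below all arrays of the other nuclei, and Arc replicate 2 lay between the DMH arrays. The means were 4.14 ± 0.27 in Arc (SD, n = 2), 2.16 ± 0.35 in VMH (SD, n = 3) and 3.70 ± 0.29 in DMH (SD, n = 3). Th was well above background on all 8 arrays, those of the VMH pools included. Whether the signal of the VMH pools came from VMH neurons was not tested. In VMH it was lower than in Arc by 3.96-fold (log2 difference -1.99, SE 0.29, limma adjusted p = 0.0258). In DMH it was higher than in VMH by 2.92-fold (log2 difference 1.55, SE 0.26, limma adjusted p = 0.0386). DMH and Arc differed by -0.44 (SE 0.29, 95% interval -1.11 to 0.23, limma adjusted p = 0.489). Against the mean of Arc and DMH, Th in VMH was lower by 3.4-fold (log2 difference -1.77, limma adjusted p = 0.0151). Leaving out any 1 of the VMH or DMH arrays ended the DMH against VMH call (limma adjusted p from 0.0648 to 0.133, differences from 1.40 to 1.74), as did dropping the filter on dim probes (0.063) or taking the row of the slide as a block (0.0566). The VMH against Arc call did not survive leaving out Arc replicate 1 (adjusted p = 0.107) or 2 (0.0651), VMH replicate 1 (0.0872) or 3 (0.0956), or DMH replicate 2 (0.0515), and the call against the mean of both did not survive leaving out VMH replicate 1 (0.0745) or 3 (0.0812).

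The sequence before the Th start is shown because it holds, in capitals, the cAMP response element TGACGTCA, whose first base is at position -45 counted from the start. It is the 250 bases at chr7:142899996-142900245, minus strand, of RefSeq's GRCm38.p6 table, written 5′ to 3′.
Th: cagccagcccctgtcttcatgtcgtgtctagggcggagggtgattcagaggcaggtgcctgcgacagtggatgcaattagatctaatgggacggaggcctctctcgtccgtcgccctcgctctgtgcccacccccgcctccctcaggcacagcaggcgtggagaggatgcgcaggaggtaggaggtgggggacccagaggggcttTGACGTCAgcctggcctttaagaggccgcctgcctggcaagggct
Of 32851 RefSeq windows of the same 300 bases (250 before and 50 after a start), 1.79% hold TGACGTCA, which reads the same on both strands.

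Gch1 encodes GTP cyclohydrolase 1, the first enzyme of tetrahydrobiopterin synthesis. On its brighter probe (chr14:47773797-47773856, mm9, minus strand) the signal was -1.36 and -3.05 in Arc, -6.55, -6.40 and -6.54 in VMH, and -0.56, -1.32 and -2.22 in DMH, in replicate order. No VMH array was well above background, and there the processed signal of 21.2 to 22 was no larger than its own error estimate of 21.3 to 22.1. All Arc and DMH arrays were well above background, and their ranges overlapped. The means were -2.20 ± 1.19 in Arc (SD, n = 2), -6.50 ± 0.08 in VMH (SD, n = 3) and -1.37 ± 0.83 in DMH (SD, n = 3). Since the VMH level is only a bound, the folds are approximate lower limits, taken against the lowest signal that was well above background on each dim array. They are approximate because a signal not well above background could exceed that level, as Slc6a3 did in VMH replicate 3 (-3.94 against -4.37). DMH was at least 7.49-fold higher than VMH (fitted log2 difference 5.13, SE 0.52, limma adjusted p = 0.00577). Arc was at least 4.19-fold higher than VMH (fitted VMH minus Arc difference -4.30, SE 0.58, limma adjusted p = 0.0197). VMH was at least 5.60-fold below the mean of Arc and DMH (fitted difference -4.71, SE 0.47, limma adjusted p = 0.00559). DMH also exceeded the average of Arc and VMH (fitted difference 2.98, SE 0.47, at least 3.66-fold, limma adjusted p = 0.0381), although the DMH and Arc arrays overlapped and DMH against Arc alone gave 0.84 (SE 0.58, 95% interval -0.50 to 2.18, limma adjusted p = 0.514). The DMH against VMH call held under each of the 18 alternatives in which Gch1 was tested (limma adjusted p from 0.00307 to 0.0336). After normexp background correction the difference was 2.67. The alternative that required signal well above background on every array left Gch1 untested. The VMH values in these fits were floor signals, so their SD of 0.08 is not a spread of expression. The p-values of all Gch1 comparisons that include VMH thus give no support beyond detection on all Arc and DMH arrays and on no VMH array. The VMH against Arc call was lost when Arc replicate 1 (adjusted p = 0.0633) was left out, and likewise VMH replicate 1 (0.0694), 2 (0.0602) or 3 (0.0761), and DMH against the mean of both was lost on leaving out any 1 array but Arc replicate 1 (0.0603 to 0.135), after normexp (0.0622), without the filter (0.0671) and when slide row was a blocking factor (0.0875).

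The second Gch1 probe, 1.55 kb away, did not pass the filter. Its signal was -3.15 and -6.16 in Arc, -6.32, -6.18 and -6.20 in VMH, and -3.55, -4.38 and -3.03 in DMH. It was well above background on 1 of 2 Arc arrays, 0 of 3 VMH arrays and 2 of 3 DMH arrays, and the probes correlated at r = 0.84 over the 8 arrays, a description of arrays that share their nuclei. The promoter of Gch1 is shown beside that of Th because both genes were called in DMH against VMH and in VMH against Arc. It has no TGACGTCA in its window but holds the shorter form TGACG, which is part of that element, in capitals, with the first base at -88. It is chr14:47189414-47189663, minus strand, GRCm38.p6, from RefSeq.
Gch1: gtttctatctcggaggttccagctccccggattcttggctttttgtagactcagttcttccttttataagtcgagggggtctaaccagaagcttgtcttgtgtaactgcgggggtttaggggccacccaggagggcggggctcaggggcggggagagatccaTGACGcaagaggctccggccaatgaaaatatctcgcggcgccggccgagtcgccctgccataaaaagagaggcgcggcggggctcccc
TGACG on either strand occurs in 20.8% of the 32851 windows.

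Ddc encodes aromatic amino acid decarboxylase, which also serves serotonin synthesis. Its brighter probe (chr11:11714106-11714165, mm9, minus strand) gave 1.61 and 1.79 in Arc, 2.06, 1.58 and 1.70 in VMH, and 1.47, 0.80 and 1.19 in DMH. All DMH arrays lay below all others, while Arc and VMH overlapped. The means were 1.70 ± 0.13 in Arc (SD, n = 2), 1.78 ± 0.25 in VMH (SD, n = 3) and 1.15 ± 0.34 in DMH (SD, n = 3). The difference between DMH and VMH was -0.63 (SE 0.24, 95% interval -1.18 to -0.07, limma adjusted p = 0.319), and that between VMH and Arc was 0.08 (SE 0.27, 95% interval -0.54 to 0.70, limma adjusted p = 0.93).

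The other Ddc probe, with its start 62.2 kb away, read another pattern. Its signal was -1.14 and -1.32 in Arc, -1.34, -2.04 and -1.68 in VMH, and -1.84, -1.05 and -1.42 in DMH. DMH overlapped both other nuclei, and the Arc arrays lay just above the VMH arrays (-1.32 against -1.34 at the nearest). The probes correlated at r = -0.26 over the 8 arrays, and the mean of both probes gave -0.19 for VMH against Arc. The probes carry different RefSeq transcripts in the array's annotation. A stretch of 30 bases of each is shown, because the brighter probe holds the polyadenylation signal AATAAA (in capitals) and the other probe does not.
Ddc brighter probe, bases 25 to 54: ggctaaatactaAATAAAcaacctatgtgc
Ddc other probe, bases 1 to 30: ccacggctagctcatacccagctatgcttg
Of the 10 probes, 2 hold AATAAA, that of Maoa being the other. The position of each probe within exons was not determined, as no mm9 annotation was used here.

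**Figure D1:**
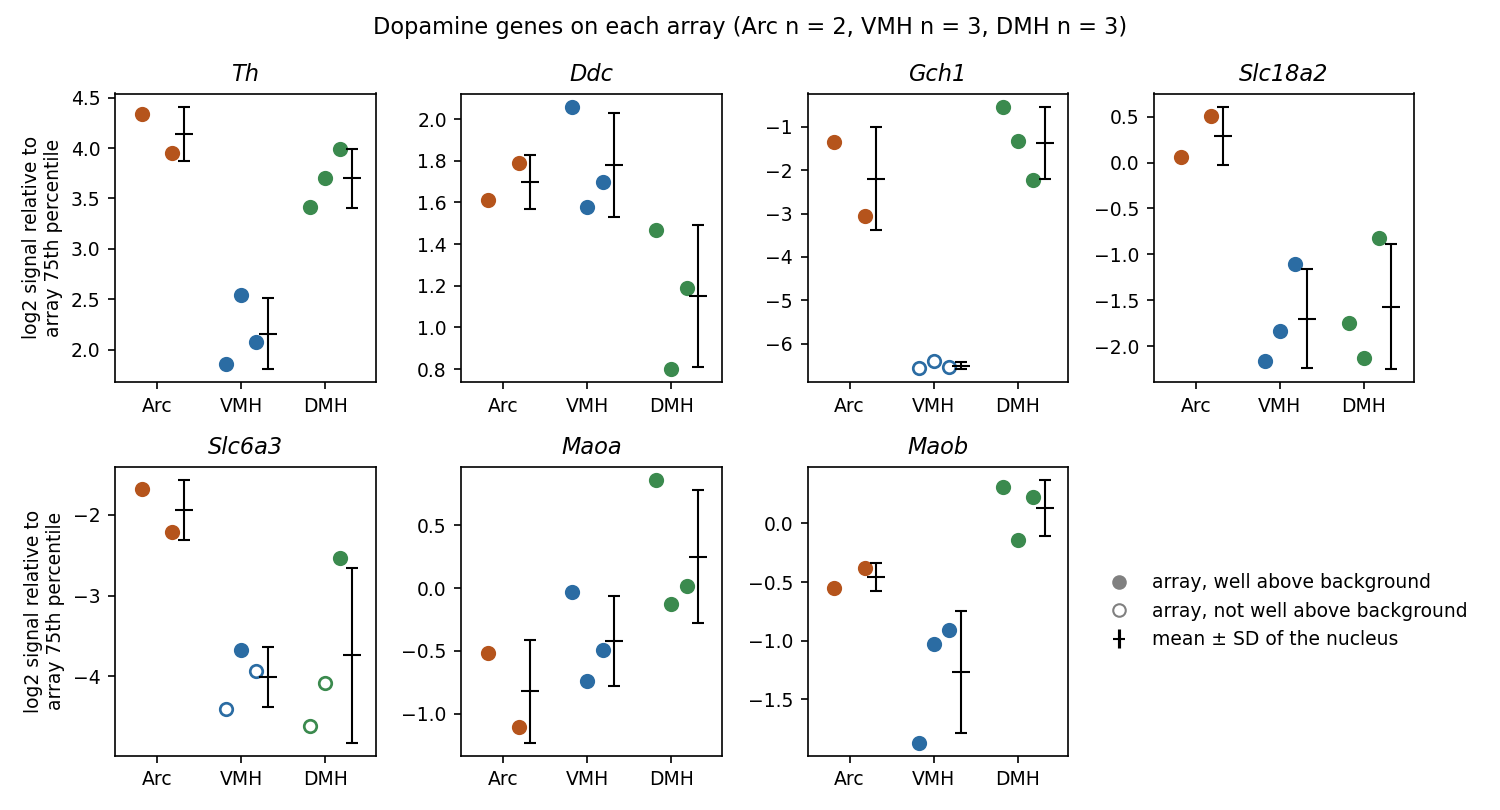
Log2 signal relative to the array's 75th percentile (vertical axis) for the brightest probe of each of the 7 genes on each array of Arc, VMH and DMH (horizontal axis), with the mean ± SD of each nucleus in black and open circles for arrays not well above background. Th and Gch1 are lowest in the 3 VMH arrays, Slc18a2 and Slc6a3 are highest in the 2 Arc arrays, and Maob is highest in the 3 DMH arrays.

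Both transporters had their highest level in Arc and lower levels in VMH and DMH, but none of these differences passed the threshold after adjustment over all genes. Slc18a2 encodes the vesicular monoamine transporter VMAT2, and Slc6a3 the dopamine transporter of the plasma membrane.

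On the brighter Slc18a2 probe (chr19:59370106-59370165, mm9, plus strand) the signal was 0.06 and 0.51 in Arc, -2.16, -1.84 and -1.10 in VMH, and -1.75, -2.13 and -0.82 in DMH. Both Arc arrays lay above all others, and VMH and DMH overlapped throughout. The means were 0.29 ± 0.32 in Arc (SD, n = 2), -1.70 ± 0.54 in VMH (SD, n = 3) and -1.57 ± 0.68 in DMH (SD, n = 3). Arc minus the mean of VMH and DMH was 1.92 (SE 0.40, 95% interval 0.99 to 2.86, 3.79-fold, limma adjusted p = 0.0945). VMH against Arc gave -1.99 (SE 0.45, limma adjusted p = 0.109), DMH against Arc -1.85 (SE 0.45, limma adjusted p = 0.127), and DMH against VMH 0.13 (SE 0.40, 95% interval -0.80 to 1.07, limma adjusted p = 0.915). With normexp background correction the Arc difference was 1.57 and passed the threshold (limma adjusted p = 0.0353; over all alternatives, 0.0353 to 0.288).

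The second Slc18a2 probe overlaps the first by 13 bases, in capitals in the lines that follow, and both are shown because their starts lie only 47 bases apart.
Slc18a2 brighter probe, last 30 bases: gatcagcaaaggcatgcCTGTTACTGCTCT
Slc18a2 other probe, first 30 bases: CTGTTACTGCTCTccaaagaaaaaagaaaa
The second probe read -2.90 and -2.60 in Arc, -3.62, -5.84 and -6.12 in VMH, and -4.27, -2.79 and -6.20 in DMH. It was well above background on 2 of 2 Arc, 1 of 3 VMH and 2 of 3 DMH arrays, and DMH replicate 2 lay between the Arc arrays. Arc minus the mean of the others was 2.06 there (SE 0.92, limma adjusted p = 0.352 in the fit of all probes), and its correlation with the brighter probe over the 8 arrays was r = 0.24. The Slc18a2 start region holds the same cAMP response element as Th, with the first base at -4, so that the element spans the annotated start; 60 bases before and 20 after the start are shown (chr19:59260818-59260897, plus strand, GRCm38.p6, RefSeq).
Slc18a2: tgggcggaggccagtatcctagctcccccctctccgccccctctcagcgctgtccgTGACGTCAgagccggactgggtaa

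The Slc6a3 probe (chr13:73715973-73716032, mm9, plus strand) gave -1.68 and -2.21 in Arc, -4.40, -3.68 and -3.94 in VMH, and -4.61, -4.08 and -2.54 in DMH. Slc6a3 was well above background on both Arc arrays, on VMH replicate 2 and on DMH replicate 3, and on no other array. Both Arc arrays lay above all others, with DMH replicate 3 nearest to them. The means were -1.94 ± 0.37 in Arc (SD, n = 2), -4.01 ± 0.37 in VMH (SD, n = 3) and -3.74 ± 1.08 in DMH (SD, n = 3). VMH against Arc gave -2.06 (SE 0.57, 95% interval -3.38 to -0.75, limma adjusted p = 0.169), DMH against Arc -1.79 (SE 0.57, limma adjusted p = 0.192), and Arc against the mean of both 1.93 (SE 0.51, limma adjusted p = 0.153). DMH replicate 3 was thus the highest DMH array for Slc6a3, for Th and, on its brighter probe alone, for Slc18a2. As 2 of 3 arrays of both VMH and DMH were not well above background, the order of Slc6a3 between these nuclei was not measured.

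**Figure D2:**
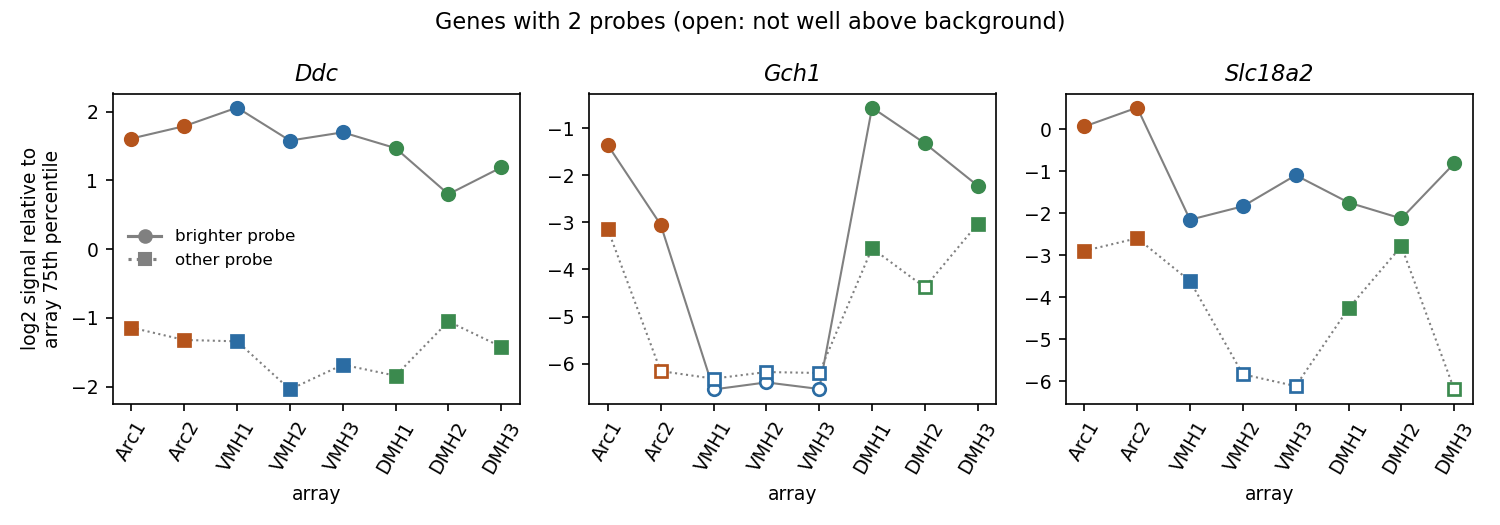
Log2 signal relative to the array's 75th percentile (vertical axis) on each of the 8 arrays (horizontal axis) for the brighter probe (circles, solid line) and the other probe (squares, dotted line) of Ddc, Gch1 and Slc18a2, with open symbols for arrays not well above background. The Gch1 probes are both near -6 on all VMH arrays, while the probes of Ddc do not move together and the second Slc18a2 probe is not well above background on 3 arrays.

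The breakdown enzymes had their highest means in DMH, and no difference passed the threshold. Maoa and Maob encode the monoamine oxidases A and B of the mitochondrial outer membrane; they lie side by side on the X chromosome.

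The Maob probe (chrX:16286427-16286486, mm9, minus strand) gave -0.55 and -0.38 in Arc, -1.87, -1.03 and -0.91 in VMH, and 0.31, -0.14 and 0.23 in DMH. The nuclei did not overlap in any pair, with DMH highest, Arc next and VMH lowest. The means were -0.46 ± 0.12 in Arc (SD, n = 2), -1.27 ± 0.52 in VMH (SD, n = 3) and 0.13 ± 0.24 in DMH (SD, n = 3). DMH against VMH gave 1.40 (SE 0.29, 95% interval 0.73 to 2.07, 2.64-fold, limma adjusted p = 0.0774), which passed the threshold under normexp background correction at 1.13 (limma adjusted p = 0.0295; over all alternatives, 0.0295 to 0.201). The neighbours in this order did not differ beyond the test: DMH against Arc gave 0.60 (SE 0.32, limma adjusted p = 0.4) and VMH against Arc -0.80 (SE 0.32, limma adjusted p = 0.319).

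The Maoa probe (chrX:16264785-16264844, mm9, plus strand) gave -0.52 and -1.11 in Arc, -0.03, -0.74 and -0.49 in VMH, and 0.86, -0.13 and 0.02 in DMH. Arc and DMH did not overlap, and VMH overlapped both. The means were -0.82 ± 0.41 in Arc (SD, n = 2), -0.42 ± 0.36 in VMH (SD, n = 3) and 0.25 ± 0.53 in DMH (SD, n = 3). DMH against Arc gave 1.07 (SE 0.37, 95% interval 0.21 to 1.93, limma adjusted p = 0.218) and VMH against Arc 0.40 (SE 0.37, limma adjusted p = 0.686). The highest Maoa array was DMH replicate 1, the brightest array of the slide, which was also the highest for Gch1 and Maob; the part of array brightness in these values was not tested.

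Maob is also known from astrocytes and histamine neurons, and their markers moved as follows. Of 9 astrocyte markers 7 were tested; 1, Gjb6, a gap junction gene, was higher in DMH than in the other nuclei averaged (1.19, SE 0.18, limma adjusted p = 0.0356), and the median difference was 0.51 against -0.04 over all genes. Leaving out 1 array or changing the processing lost the Gjb6 call in 10 of 19 alternatives (adjusted p up to 0.123). In the same comparison Slc1a3 gave 1.09 and Slc1a2 0.51, both named after their values were seen and neither called (limma adjusted p = 0.137 and 0.261). The remaining tested astrocyte markers, also named afterwards, gave 0.54 (Aldh1l1), 0.14 (Aqp4), 0.09 (Gfap) and -0.28 (Aldoc), and none was called. The summed astrocyte level, as a multiple of the 75th percentile and carried mostly by the bright Aldoc probe, was 47.1 to 54.2 in Arc, 49.0 to 59.7 in VMH and 41.5 to 52.8 in DMH, and Gja1, a defining marker, was well above background on 1 DMH array alone. Hdc, the histamine-synthesising enzyme, was -1.95 ± 0.30 in Arc (SD, n = 2), -0.17 ± 0.21 in VMH (SD, n = 3) and -1.32 ± 1.5 in DMH (SD, n = 3), and neither of the 2 histamine neuron markers was called by limma (0 to 2 had an unadjusted p under 0.05, by comparison). The part of these cells in the Maoa and Maob values was not tested.

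**Figure D3:**
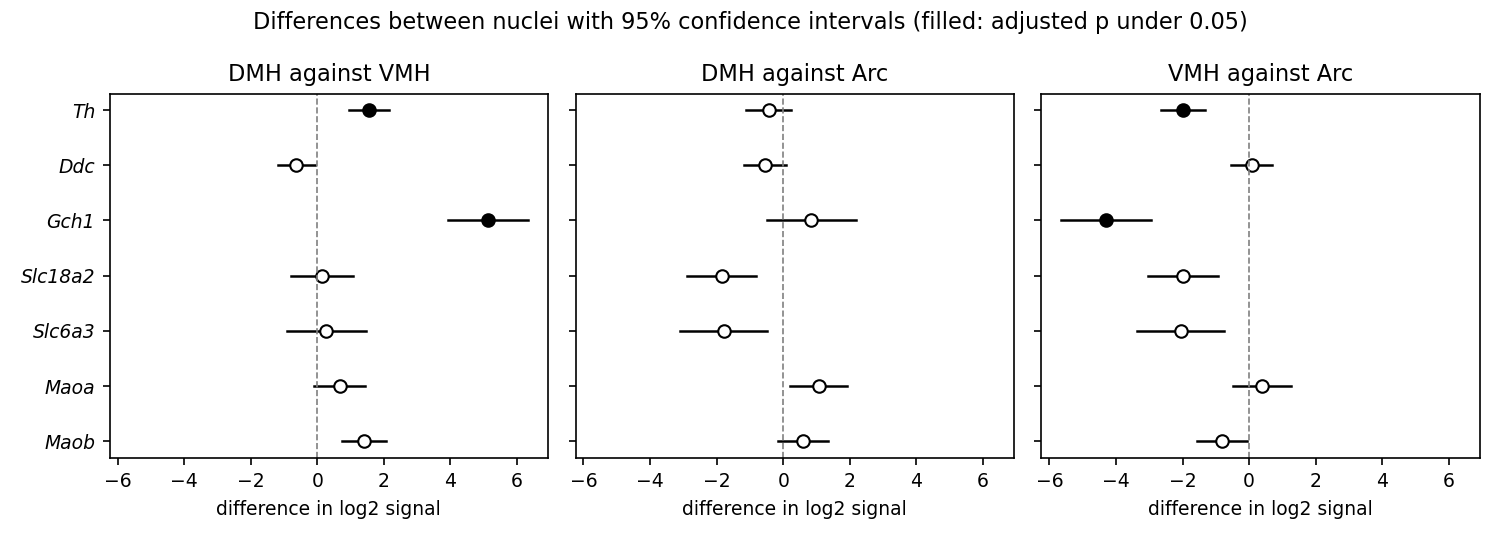
Difference in log2 signal (horizontal axis) with its 95% confidence interval for each of the 7 genes (rows) in DMH against VMH, DMH against Arc and VMH against Arc; filled circles mark a limma adjusted p under 0.05. Th and Gch1 are filled in both comparisons with VMH, and no gene is filled in DMH against Arc.

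Counted over the 7 genes, DMH against VMH gave 2 higher genes (Gch1 and Th) and no lower one, where 1.23% of the 27424 genes tested were called and 0.441% were higher; the median difference of the 7 was 0.67 against -0.04 over all genes. VMH against Arc gave 2 lower genes, again Gch1 and Th, where 0.977% of all genes were called and 0.317% were lower, with a median of -1.99 against -0.03. VMH against the mean of Arc and DMH gave the same 2 genes as lower, where 1.34% of all genes were called and 0.47% were lower, with a median of -1.10 against 0.01. DMH against the mean of Arc and VMH gave 1 higher gene, Gch1, where 0.842% of all genes were called and 0.368% were higher, with a median of 0.55 against -0.04. DMH against Arc and Arc against the mean of the others gave 0 called genes by limma, where 0.419% and 0.613% of all genes were called in either direction; 3 and 4 of the 7 genes had an unadjusted p under 0.05 there, and the medians were -0.44 against -0.05 and 1.21 against 0.04. Each count above 0 includes Gch1, which passed the filter only through Arc and DMH, so its calls add no support beyond detection. Of the other members only Th was called, in DMH against VMH, VMH against Arc and VMH against the mean of Arc and DMH. The comparisons share arrays and are not independent of each other.

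The arrays of the 2 nuclei did not overlap for 4 of 7 genes in DMH against VMH, where the share over all genes was 21.6%. This held for 5 of 7 genes in DMH against Arc (33.4% of all genes) and for 5 of 7 in VMH against Arc (34.9% of all genes). The counts include Gch1 in both comparisons with VMH and Slc6a3 in both with Arc. Both genes passed the filter only through nuclei where they were high, so their separation is no support. The other genes were Th, Ddc and Maob in DMH against VMH and Th, Slc18a2 and Maob in VMH against Arc. In DMH against Arc they were Ddc, Slc18a2, Maoa and Maob. Over the 8 arrays, Th correlated with Gch1 at r = 0.87 and Slc6a3 with Slc18a2 at r = 0.89, while Th correlated with Ddc at r = -0.51. Taken as deviations from the mean of each nucleus, the same pairs gave -0.08, 0.63 and -0.64. These are descriptions of 8 arrays that share their nuclei, brightness and possibly animals. Gch1 was not well above background on any VMH array, nor Slc6a3 on most VMH and DMH arrays, so the values with these genes rest in part on floor signals. For Ddc the brighter probe was used, and its 2 probes correlated with each other at r = -0.26.

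The promoters were also searched, on both strands, for the other motifs; 6 of the 7 genes matched a RefSeq entry, with 7 windows, 2 of them for Ddc. The Nurr1 response element AAAGGTCA, found in 1.51% of all windows, was present in the window of 1 Ddc start, on the reverse strand with its first base at -73, where it overlaps a TATAAA match at -68. The AP-1 motif TGANTCA (7.81% of all windows) was present for Th and for the same Ddc start. TATAAA (13.6% of all windows) was also present for Gch1, and the GC box GGGCGG (35.7% of all windows) for Th, Gch1, Slc6a3, Slc18a2 and Maoa. TGACG stood in the Maoa window as well, at -209. A match is a match of letters and no measure of binding.

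Of 7 other genes of tetrahydrobiopterin synthesis and recycling, 6 were tested and 1 was called. This was Pcbd1, which helps to recycle the cofactor and was lower in VMH than in the mean of Arc and DMH (-1.94, SE 0.32, limma adjusted p = 0.0322), with means of 0.58 ± 0.25 in Arc (SD, n = 2), -1.50 ± 0.39 in VMH (SD, n = 3) and 0.32 ± 0.62 in DMH (SD, n = 3). The median of the 6 in that comparison was -0.17 against 0.01 over all genes. The Pcbd1 call was lost in 9 of 19 alternatives (adjusted p up to 0.14). Pts, the second enzyme of the synthesis, was not tested, being well above background on 5 of the 8 arrays only.

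None of the 10 tested genes among 14 other monoamine enzymes and transporters was called by limma in any of the 6 comparisons, and at most 1 had an unadjusted p under 0.05 in a comparison. The smallest p among them was that of Pnmt, which makes adrenaline, in DMH against Arc (-0.81, SE 0.23, unadjusted p = 0.00919, adjusted p = 0.165). The noradrenaline and serotonin transporters Slc6a2 and Slc6a4 and the second vesicular transporter Slc18a1 were not well above background on any array. Dbh, which makes noradrenaline from dopamine, was well above background on 7 of 8 arrays, at -3.32 ± 0.44 in Arc (SD, n = 2), -3.48 ± 0.51 in VMH (SD, n = 3) and -3.45 ± 0.22 in DMH (SD, n = 3). Of 5 dopamine receptors 3 were tested and none was called by limma, with at most 1 at an unadjusted p under 0.05 in a comparison; the smallest p was that of Drd2, the D2 receptor, in VMH against the mean of the others (-0.73, SE 0.21, unadjusted p = 0.00838, adjusted p = 0.179). Drd1a and Drd5 were not well above background on any array.

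Among 17 transcription factors known from dopamine neurons, 11 were tested, and 4 were lower in VMH than in Arc, among them Otp, Dlx1 and Dlx2, homeobox genes of forebrain and hypothalamic neurons. The median of the 11 was -1.13 in that comparison against -0.03 over all genes. Dlx1 and Dlx2 were lowest in VMH, as Th and Gch1 were, with DMH higher than VMH by 3.77 (SE 0.32, limma adjusted p = 0.00319) and 2.67 (SE 0.23, limma adjusted p = 0.00319), and kept these calls in all 19 alternatives. Otp in VMH against Arc gave -2.47 (SE 0.29, limma adjusted p = 0.0136; lost in 4 of 19 alternatives, up to 0.0587). Isl1, a LIM homeobox factor named here after its values were seen, was lower in DMH than in Arc (-2.53, SE 0.38, limma adjusted p = 0.0465; lost in 12 of 19 alternatives, up to 0.126). Nr4a2, or Nurr1, the best known factor of midbrain dopamine neurons, had means of 0.54 ± 0.01 in Arc (SD, n = 2), -0.95 ± 0.47 in VMH (SD, n = 3) and -1.49 ± 1.05 in DMH (SD, n = 3) and was not called (DMH against Arc -2.04, SE 0.56, limma adjusted p = 0.155).

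Of 10 genes known from tuberoinfundibular dopamine neurons, 8 were tested, and 5 were lower in VMH than in the mean of Arc and DMH while 1 was higher. The median difference of the 8 was -2.32 against 0.01 over all genes. The lower genes were Gal (galanin), Ghrh (growth hormone-releasing hormone), Gad1 and Gad2 (GABA synthesis) and Slc32a1 (vesicular GABA transporter), of which Gad1 and Slc32a1 were named after their values were seen. Gal gave -3.18 (SE 0.19, limma adjusted p = 0.000677) and Gad2 -3.76 (SE 0.27, limma adjusted p = 0.0017), and both kept the call in all 19 alternatives. Gad1 was well above background on 1 of 3 VMH arrays, so its difference rests in part on floor signals. Its call was lost in 3 of the 18 alternatives that tested it (limma adjusted p up to 0.066). That of Slc32a1 was lost in 2 of 19 (up to 0.0841). Ghrh was an Arc gene, higher there than in the mean of the others by 2.95 (SE 0.22, limma adjusted p = 0.00266). The 1 higher gene, Prlr, the prolactin receptor, had its highest mean in VMH, at 1.16 ± 0.09 (SD, n = 3) against 0.53 ± 0.10 in Arc (SD, n = 2) and -0.63 ± 0.22 in DMH (SD, n = 3), and DMH was lower than VMH (difference -1.78, SE 0.19, limma adjusted p = 0.00692). These genes are also expressed by neurons without dopamine, so their levels do not count dopamine neurons.

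**Figure D4:**
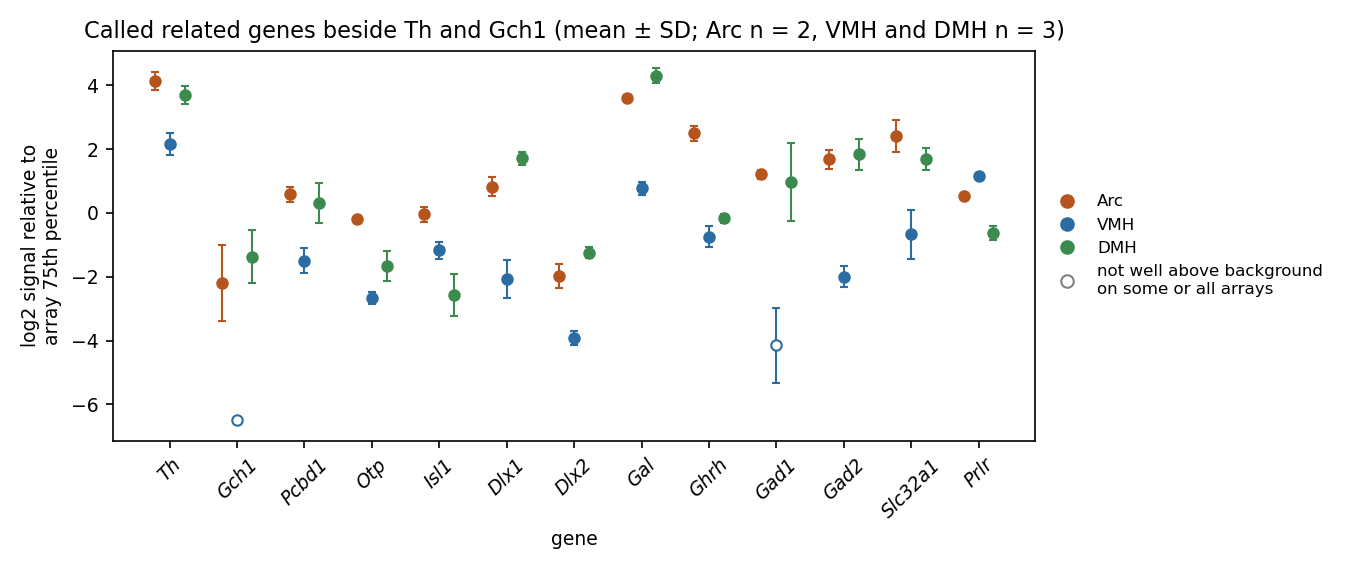
Mean ± SD of the log2 signal relative to the array's 75th percentile (vertical axis) in Arc (n = 2), VMH (n = 3) and DMH (n = 3) for Th and Gch1 and for related genes that were called (horizontal axis), with open circles where some or all arrays of the nucleus were not well above background. Pcbd1, Otp, Dlx1, Dlx2, Gal, Ghrh, Gad1, Gad2 and Slc32a1 have their lowest mean in VMH, as do Th and Gch1, while Prlr is highest there.

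Markers of other cells moved with nucleus in some lists. Of 5 tanycyte and ependyma markers, Col23a1 was lower in DMH than in the other nuclei averaged (-1.83, SE 0.28, limma adjusted p = 0.0356; lost in 11 of 19 alternatives), and Crym was higher in VMH than in the other nuclei averaged (1.84, SE 0.29, limma adjusted p = 0.0297; lost in 8 of 19 alternatives). The summed tanycyte level, in large part from the bright Col23a1 probe, was 3.89 to 4.40 in Arc, 2.53 to 3.06 in VMH and 1.01 to 1.41 in DMH. None of 6 microglia markers was called by limma (1 to 3 had an unadjusted p under 0.05, by comparison). Their summed level, carried mostly by the bright Itgam probe, was 211 to 243 in Arc, 159 to 188 in VMH and 111 to 149 in DMH. Aif1 and Cx3cr1, named after their values were seen, had their highest mean in DMH, and the other listed microglia markers had theirs in Arc. DMH against Arc gave only 0.02 for Aif1 and 0.34 for Cx3cr1 (limma adjusted p = 0.988 and 0.618). The 2 tested serotonin neuron markers gave 0 calls by limma and 0 unadjusted p under 0.05, and 6 oligodendrocyte and 4 endothelium markers gave 0 calls with at most 1 unadjusted p under 0.05 in a comparison. The part of any of these cells in the values of the 7 genes was not tested.

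The genes whose profile over the 8 arrays was most like that of Th, among 12949 candidates, were Rab3b (r = 0.972), Acadvl (0.971), Ngfr (0.97), Asb4 (0.97) and Rps27 (0.966), and 59 candidates had r over 0.9. For Gch1 they were Stag2 (0.992), Hmx3 (0.986) and Hmx2 (0.98), with 94 of 13301 candidates over 0.9. For the transporters, Dbnl (0.987), Ect2l (0.966) and Hba-a1 (0.962) were nearest to Slc6a3, and Slc38a3 (0.98), Vwa5b1 (0.976) and Cdcp1 (0.963) to Slc18a2. Nearest to Ddc were Nhlrc3 (0.976), Sfxn5 (0.94) and Ampd3 (0.935), to Maoa Zfp932 (0.988), Uba2 (0.981) and Rb1 (0.978), and to Maob Btd (0.981), Dnajc17 (0.969) and Zfp931 (0.968). No member of the 7 was among the nearest genes of another. Candidates had to be well above background on every array on which the member was. Gch1 and Slc6a3 were thus candidates for no other member, and their absence is no result.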

How the data were processed

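RNA of 8 pools of laser-microdissected neurons was hybridised in 1 colour (Cy5) to Agilent arrays, per the labels. The deposited values are spot intensities; per the file headers, the scanner software (Agilent Feature Extraction, version 11.5.1.1 in the submitters' processing notes) subtracted background and detrended them, and they were not normalized between arrays. The authors' series-wide values (55681 entries) run in constant steps after the first 13 entries (tolerance 1e-04) and were not used.

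From these, log2 of the processed intensity was taken relative to each array's 75th percentile over its 59305 non-control spots. Outlier spots were left out, and spots of a probe averaged. Of 55681 probes, 41480 were kept (well above background throughout at least 1 nucleus); the brightest stood for each of 27425 gene names. The 8 arrays entered 1 linear model of the 3 nucleus means in limma (version 3.58.1; lmFit, eBayes; R 4.3.3; data.table, version 1.17.8), with 5 residual and 2.78 prior degrees of freedom and a median residual SD of 0.355. Benjamini-Hochberg adjustment ran over all genes in each of 6 contrasts, with a threshold of 0.05. The model was tested on simulated data. Promoter windows are RefSeq's (GRCm38.p6) and probe positions are the array design's (mm9).

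Named are the 7 genes, up to 4 called genes per related list (or the smallest p), up to 2 per marker list, and the 5 genes most like Th and 3 most like each other member. Some results for genes in the lists are not reported here. The members and lists were chosen with earlier results of these data known. Alternatives were normexp (offset 50), quantile normalization, another percentile set, 2 other filters, probe means, probe-level tests, trended eBayes, array weights, blocks for replicate number and slide row, and each array left out; for related genes these were added after seeing the data.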

Additional observations from a re-analysis of the deposited data

How the results depend on the processing

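Over 19 alternatives, 8 of which leave out 1 array, the count of the 7 genes called moved in both directions, and the share of all genes called moved too. Normexp raised that share to 1.80% in DMH against VMH, 1.47% in VMH against Arc and 1.92% in VMH against the mean of the others, and each of these counts from 2 to 3, adding Maob (1.13, limma adjusted p = 0.0295), Slc18a2 (-1.60, 0.0395) and Maob (-0.90, 0.0473). In Arc against the mean of the others it gave 1 in place of 0 (Slc18a2; share 1.03%), as did trended eBayes (1; Th, 1.21, limma adjusted p = 0.043; share 1.02%), and in DMH against the mean of the others 0 in place of 1 (share 1.14%). Probe means gave 3 in VMH against Arc, where the share was 1.2% (Slc18a2, -2.22, limma adjusted p = 0.0443). With no filter on dim probes the count was 1 in DMH against VMH (share 0.574%) and 0 in DMH against the mean of the others (0.319%). With the row of the slide as blocking factor it was 1 (0.609%) and 0 (0.277%) in the same comparisons. The filter on all 8 arrays, which leaves Gch1 untested, gave 1 in each comparison with VMH that had 2. The shares were 1.22% in DMH against VMH, 1.05% in VMH against Arc and 1.41% in VMH against the mean of the others. In DMH against the mean of the others this filter gave 0 (share 0.787%). Leaving out 1 VMH or DMH array gave 1 in DMH against VMH (share 0.394% to 0.594%) and 0 to 2 in VMH against Arc (0.317% to 0.97%). Against the mean of the others it gave 1 to 2 in VMH (0.347% to 1.06%) and 0 in DMH (0.0912% to 0.383%). Causes were not tested.

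With the replicate number as a block, the counts were 1 in DMH against VMH (Th lost at 1.55, limma adjusted p = 0.1), 0 in VMH against Arc (Gch1 -4.07, 0.0588; Th -2.04, 0.0943), 1 in VMH against the mean of the others (Th lost at -1.79, 0.0621) and 0 in DMH against the mean of the others. The share of all genes called was then 0.594%, 0.27%, 0.521% and 0.23%. Same-numbered samples correlated at r = 0.07 to 0.18 (7 pairs), and samples of different number and nucleus at -0.13 to 0.02. All 8 of 8 samples correlated best with a sample of their own number, a hint from the data and not the design. The labels do not say that equal numbers are pairs, so the main fit does not use them, and whether they are was not settled. Under the same block the related genes called numbered 0 in DMH against Arc, 4 in VMH against Arc, 1 in Arc, 6 in VMH and 2 in DMH, each of the last 3 against the mean of the others.

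The related genes called under the main settings numbered 3, 9, 3, 10 and 6 in these comparisons. Of all genes, 0.419%, 0.977%, 0.613%, 1.34% and 0.842% were called there. In DMH against Arc they were 5 with normexp (share of all genes 0.842%), 1 with no filter (0.118%) and 1 with array weights (0.157%). In Arc against the mean of the others they were 7 with normexp (1.03%) and 5 with trended eBayes (1.02%). In DMH against the mean of the others they were 3 with the slide row (0.277%). Without 1 VMH or DMH array the share was 0.131% to 0.215% in DMH against Arc. In Arc against the mean of the others it was then 0.244% to 0.335%. Leaving out an array gave 1 to 2 in DMH against Arc, 4 to 9 in VMH against Arc, 1 to 2 in Arc, 5 to 10 in VMH and 1 to 5 in DMH against the mean of the others.

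Signs turned only for differences that were not called. Ddc in VMH against Arc was -0.19 with probe means and -0.06 to 0.18 without an array, and in VMH against the mean of the others -0.0016 with probe means. Without an array, Gch1 in DMH against Arc ran from -0.01 to 1.68, Slc6a3 and Slc18a2 in DMH against VMH from -0.33 to 0.70 and -0.24 to 0.43, Maob in Arc against the mean of the others from -0.05 to 0.19, and Maoa in VMH against the mean of the others from -0.33 to 0.02. The sign for Slc6a3 has no meaning, as most of those arrays were not well above background. Signal over background limits Gch1 in VMH and Slc6a3 in VMH and DMH.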
